A study of Mus musculus with 20 samples.

Results

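The day 1 to day 3 step of control reprogramming was followed across all measured genes by setting the 2 control libraries of day 3 against the 2 control libraries of day 1, which makes 4 of the 20 libraries of the series. The starting cells were passage 2 embryonic fibroblasts of the OG2 mouse line, in which Oct4 regulatory sequence drives green fluorescent protein. Both groups received retroviruses with the reprogramming factors, abbreviated OSKM in the labels (Oct4, Sox2, Klf4 and Myc), together with an shRNA against luciferase, the control hairpin, and were kept in iCD1 medium. The groups therefore share the factors, the hairpin and the medium and differ in the day of harvest, 3 or 1. Neighbouring values came from the control at days 0 and 5 and from cells given an shRNA against Ddx10 in place of the luciferase hairpin, at days 3 and 1, with 2 libraries in each group. Ddx10 is a DEAD-box RNA helicase of ribosome assembly. The labels name the cell type only as reprogramming cells and describe no sorting step.

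When fibroblasts are turned towards pluripotency by these factors, an early phase is known in which cells leave the fibroblast state, lose contractile fibres and extracellular matrix genes, and take up epithelial adhesion genes such as those for E-cadherin and Epcam. Genes of the pluripotency network follow in stages, with Nanog and other late members after the first markers. Interferons, which cells release when they sense viral nucleic acid, act through the receptor-bound Jak kinases and the Stat transcription factors and switch on antiviral genes, MHC class I presentation and a family of large GTPases.

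The promoters of several members are shown first because the gene groups that moved differ in short sequence elements close to their starts. All come from RefSeq on GRCm38.p6, run 5′ to 3′ on the strand of the gene, and are cut around the element. Capitals mark the interferon-stimulated response element core, read here as GAAA, any 2 bases and GAAA on either strand, in the first 5 sequences, the E-box CAGGTG on either strand in the next 3, and the cell cycle homology region TTTGAA in the last 2. Igtp lies at chr11:58199492-58199555 (+), Gbp2 at chr3:142620574-142620662 (+), Isg15 at chr4:156200837-156200926 (-), Ifit1 at chr19:34640755-34640844 (+) and H2-T23 at chr17:36032766-36032855 (-). Epcam lies at chr17:87635920-87635978 (+), Ap1m2 at chr9:21312334-21312444 (-), Crb3 at chr17:57062053-57062200 (+), Cdk1 at chr10:69352913-69353013 (-) and Cdc20 at chr4:118437344-118437391 (-).
Igtp: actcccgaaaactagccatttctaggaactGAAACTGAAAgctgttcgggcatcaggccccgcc
Gbp2: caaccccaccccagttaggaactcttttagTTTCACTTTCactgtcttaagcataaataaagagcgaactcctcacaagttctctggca
Isg15: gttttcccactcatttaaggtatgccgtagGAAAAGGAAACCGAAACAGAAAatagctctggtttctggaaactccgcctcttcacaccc
Ifit1: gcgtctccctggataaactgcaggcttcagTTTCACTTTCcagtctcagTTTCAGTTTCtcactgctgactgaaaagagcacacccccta
H2-T23: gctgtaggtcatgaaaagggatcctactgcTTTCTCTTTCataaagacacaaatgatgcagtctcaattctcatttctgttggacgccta
Epcam: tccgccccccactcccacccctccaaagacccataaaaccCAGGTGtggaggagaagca
Ap1m2: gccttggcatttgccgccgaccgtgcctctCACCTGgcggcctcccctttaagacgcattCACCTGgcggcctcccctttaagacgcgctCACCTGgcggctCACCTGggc
Crb3: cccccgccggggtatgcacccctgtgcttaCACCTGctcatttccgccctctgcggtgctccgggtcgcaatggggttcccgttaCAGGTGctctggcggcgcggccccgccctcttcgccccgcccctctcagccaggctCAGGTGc
Cdk1: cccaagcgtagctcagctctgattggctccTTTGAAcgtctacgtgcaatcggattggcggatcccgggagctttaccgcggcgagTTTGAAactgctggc
Cdc20: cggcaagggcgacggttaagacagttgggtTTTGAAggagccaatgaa

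The element begins 34 bases before the start of Igtp and 59 bases before that of Gbp2, while Isg15 holds 3 overlapping copies and Ifit1 holds 2. In windows from 250 bases before to 50 bases after the start, the interferon core stood in 2.9% of the 11329 promoters that could be matched to genes of the table. It stood in 12 of 27 interferon-stimulated genes (44.4%), in 5 of 16 MHC class I genes (31.2%) and in 9 of 9 matched interferon-inducible GTPase genes. The E-box CAGGTG, which repressors of the Snail and Zeb families are known to bind, stood in 18.1% of all promoters and in 14 of 17 matched junction and adhesion genes (82.4%). TTTGAA stood in 12.1% of all promoters and in 30 of 40 matched G2 and M phase genes (75.0%). These are matches of letters and describe the windows; no binding was measured.

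Of 15757 genes, 5844 (37.1%) differed between day 3 and day 1 at an adjusted p below 0.05, with 3070 higher (19.5%) and 2774 lower (17.6%). A difference of at least 2-fold was reached by 1429 higher genes (9.07%) and by 563 lower genes (3.57%), while the median over all genes was 0.014 on the log2 scale. Levels are the authors' normalized read counts, differences are on the log2(value + 1) scale, and p-values come from limma with adjustment over all genes. Column sums were 16.3 M and 16.3 M at day 3 and 17.7 M and 17.4 M at day 1, within 15.7 M to 21.3 M for the series. The 2 day 1 control libraries were the least alike of any pair in the series, with a median absolute difference between replicates of 0.252 on the log2 scale, against 0.147 for the day 3 control and 0.118 to 0.162 for the other 8 groups. When limma weighted each library by its spread, the day 1 control libraries weighed 0.352 and those of day 3 1.01, and 3690 genes were called (1981 higher and 1709 lower). In a fit of the 4 libraries alone 2857 were called (1631 higher and 1226 lower). Replicates are called biological, but no label gives separate cultures, so p-values measure the spread between libraries of this series only. In the main fit that spread was pooled over all 20 libraries, although the day 1 control pair was the least alike. In bulk RNA, fewer cells of a type and less RNA per cell cannot be told apart.

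**Figure D1:**
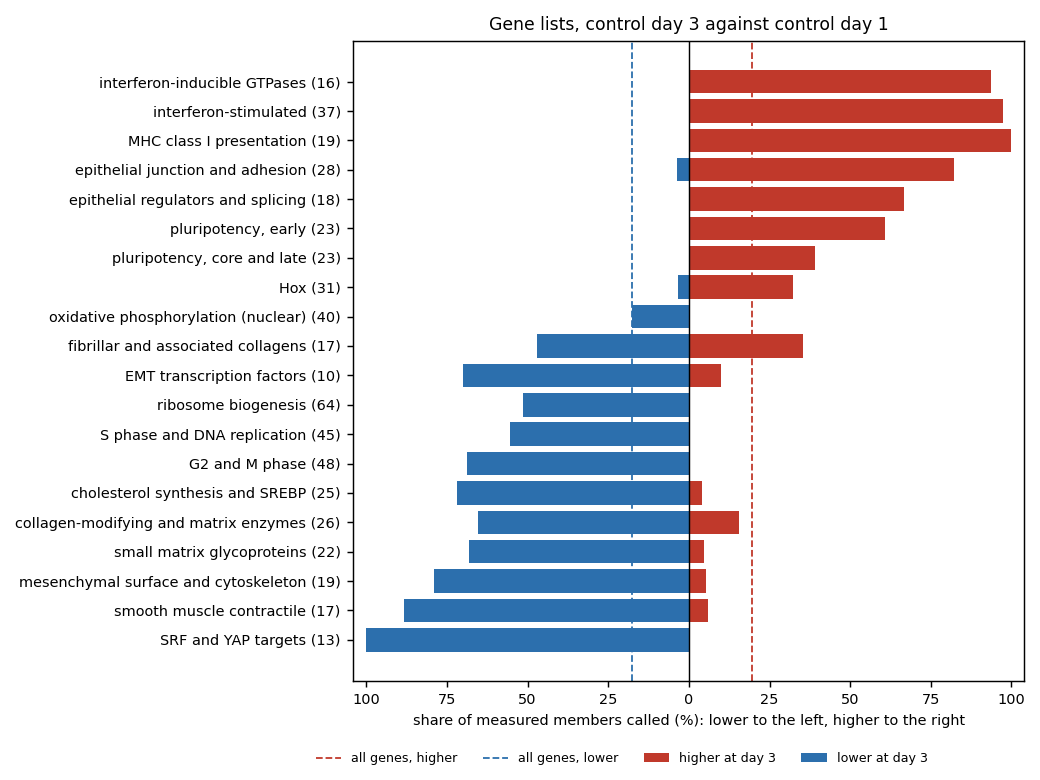
Share of the measured members of 20 gene lists that were called at day 3 against day 1 in the control, in percent, with higher members to the right and lower members to the left of 0, the number of measured members in brackets and dashed lines at the shares of all genes (19.5% higher, 17.6% lower). The 3 interferon-related lists and the epithelial lists extend to the right, and the contractile, matrix, cell cycle and cholesterol lists extend to the left.

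The strongest single rise was that of Trh, which encodes the precursor of thyrotropin-releasing hormone (chr6:92242061-92244650). It had 1695 and 2060 normalized counts at day 3 and 7.15 and 15.8 at day 1, a log2 difference of 7.32 ± 0.52 (SE; adjusted p = 1.6e-07), and the step was as large with the Ddx10 hairpin (7.30). Gpx2, a glutathione peroxidase best known from gut epithelium (chr12:76792333-76795554), had 194 and 215 at day 3 and 1.03 and 0 at day 1, and went on to 1671 and 1752 at day 5. Spock2, a secreted proteoglycan, had 977 and 1000 at day 3 against 17.0 and 14.5 at day 1 (5.89 ± 0.18, adjusted p = 2.61e-12). The 15 largest rises were chosen by size among called genes whose day 3 and day 1 libraries did not overlap, so this separation follows from the choice. The other rises among the 15 largest joined 4 interferon-inducible GTPases (Iigp1, Tgtp2, Igtp and Tgtp1) to genes of varied tissue: the epithelial factor Elf3, the mucin-like Fcgbp, the sodium channel Scn10a, the mitochondrial dimethylglycine dehydrogenase Dmgdh, the sphingosine phosphate phosphatase Sgpp2, and Oit1, Jakmip1 and Fam25c. Fam25c had 112 and 106 at day 3 and was listed at 0 in both day 1 libraries.

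The largest falls belonged to smooth muscle contraction and matrix. Tagln, the actin-binding protein transgelin, had 291 and 212 at day 3 and 6084 and 5693 at day 1 (-4.56 ± 0.14, adjusted p = 2.61e-12). Cnn1, calponin of smooth muscle, averaged 19.6 ± 0.634 at day 3 and 632 ± 102 at day 1 (SD, 2 libraries each; -4.94 ± 0.68, adjusted p = 8e-05). Fbln5, an elastic fibre protein, had 1100 and 1037 at day 3 and 13391 and 13521 at day 1 (-3.65 ± 0.08, adjusted p = 1.11e-13). These 3 genes were likewise chosen for size among called genes with libraries that did not overlap, so their separation is no further support. Of the 15 largest falls, 5 more are contractile genes (Acta2, Myl9, Acta1, Myh11 and Lmod1), and Fmod, C1qtnf3, Lox, Ctgf and Igfbp7 encode secreted or matrix proteins. Kcnk2, a potassium channel, was also among them, with 19.9 and 14.4 at day 3 against 160 and 420 at day 1 (-3.86, adjusted p = 0.00573), and its call was lost with library weights (adjusted p = 0.0508) and without day 1 replicate 2 (-3.17, adjusted p = 0.0544).

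Interferon-stimulated genes rose nearly without exception: 36 of 37 measured members were higher at day 3, none was lower, and their median difference was 2.13 on the log2 scale. Their summed level was 80245 and 81955 normalized counts at day 3, against 20858 and 23529 at day 1, and the groups did not overlap. The list had already risen from day 0 to day 1 (34 higher, 1 lower, where 28.3% and 26.7% of all genes were called), and 12 members were higher and none lower from day 3 to day 5 (15.9% and 15.4% of all genes). Among regulators, the signal transducer Stat2 had 5683 and 5729 at day 3 and 917 and 1030 at day 1 (2.55, adjusted p = 1.44e-11). Irf1, a transcription factor induced by interferon gamma, had 1490 and 1283 at day 3 and 246 and 199 at day 1 (2.64, adjusted p = 5.01e-10), and it had not passed the test in the day 0 to 1 step (0.27). In both genes the day 3 libraries lay far above those of day 1.

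Effectors of the same list rose over a wide range. Oas2, an antiviral enzyme that makes an oligoadenylate signal for RNA decay, had 5017 and 5427 at day 3 and 371 and 501 at day 1 (3.59, adjusted p = 2.96e-07). Parp14, an ADP-ribosyltransferase, had 2582 and 2742 at day 3 and 212 and 255 at day 1 (3.51, adjusted p = 4.13e-09). Isg15, the ubiquitin-like modifier whose promoter with 3 overlapping cores is printed above, had 1632 and 1657 at day 3 against 380 and 314 at day 1 (2.25). The smallest called differences were those of Trim25 (0.38) and Ifit2 (0.68). Members of the Oas and Ifit families are close copies of one another, and how reads were shared among them is not given in the sources used here.

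Every measured gene of MHC class I presentation rose: 19 of 19 were higher, by 0.83 to 4.69 on the log2 scale (median 2.17), whereas 7 were higher and 5 lower from day 0 to day 1. The immunoproteasome subunits, which cut peptides for presentation, led. Psmb9 had 261 and 283 at day 3 and 6.93 and 13.1 at day 1 (4.69), and Psmb8 had 787 and 774 at day 3 and 30.7 and 29.2 at day 1 (4.66). Nlrc5, the transactivator of class I genes, had 1058 and 1119 at day 3 and 57.4 and 56.6 at day 1 (4.23). The peptide transporter Tap1 had 2762 and 2710 at day 3 and 376 and 503 at day 1 (2.65, adjusted p = 5.75e-10), with a day 0 to 1 difference of 0.02. H2-K1, a classical class I heavy chain, had 2452 and 2476 at day 3 and 513 and 585 at day 1 (2.17, adjusted p = 8.25e-11), and reached 19603 and 17651 at day 5. B2m, the light chain, had the smallest change, with 14185 and 16412 at day 3 and 10286 and 7202 at day 1 (0.83). After day 3, 18 of 19 members were called higher from day 3 to day 5. The H2-Q and H2-T genes are near-identical in places, so single values among them are uncertain.

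The interferon-inducible GTPases, which attack membranes around intracellular pathogens, were listed after the values of the 15 largest rises had been seen, and their count is a description. Of 16 measured, 15 were higher and none lower, with a median of 3.87. Igtp (chr11:58199556-58207591) had 3338 and 3583 at day 3 and 80.7 and 145 at day 1 (4.98 ± 0.25, adjusted p = 3.27e-09). Iigp1 had 2631 and 2587 at day 3 and 21.9 and 33.1 at day 1 (6.54 ± 0.67, adjusted p = 5.25e-06). Gbp2 had 3335 and 3429 at day 3 and 181 and 255 at day 1 (3.97). Summed over the list the level was 40338 and 42130 at day 3, against 3595 and 4686 at day 1. Tgtp1 and Tgtp2 are near-identical copies with 4.82 and 6.40, and their separate values are uncertain.

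The ligands, receptors and kinases upstream of these genes, also listed after values had been seen, moved in both directions. Of 10 measured, 4 were higher and 3 lower, where 19.5% and 17.6% of all genes were. Their differences ran from -0.45 to 3.41, with a median of -0.04. Ifng, the gene of interferon gamma, was low, with 17.1 and 14.2 at day 3 and 0 and 1.43 at day 1 (3.41, adjusted p = 0.0011). Both day 3 libraries were above both day 1 libraries, and day 5 had 4.33 and 6.71. The interferon gamma receptor genes Ifngr1 and Ifngr2 were lower (-0.30 and -0.45, adjusted p = 0.0223 and 0.00273), as was Jak1 (-0.37), and the 3 calls were lost in the fit of the 4 libraries alone (adjusted p = 0.16, 0.0805 and 0.0773). The feedback inhibitor Socs1 had 204 and 209 at day 3 and 95.4 and 87.2 at day 1 (1.17, adjusted p = 0.000236), Socs3 differed by 0.70 and the kinase Tyk2 by 0.77. The type I receptor genes Ifnar1 (0.15) and Ifnar2 (-0.30) did not pass the test.

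Class II presentation, normally kept to antigen-presenting cells, came later. Of 7 measured members 1 was called at day 3 against day 1, namely the invariant chain gene Cd74, with 13.3 and 17.7 at day 3 and 0 and 2.92 at day 1 (3.05, adjusted p = 0.000917). From day 3 to day 5, 6 of the 7 were called higher, where 15.9% of all genes were. Cd74 had 1092 and 779 at day 5, and Ciita, the class II transactivator, had 2.01 and 1.46 at day 1, 7.99 and 7.75 at day 3 and 49.1 and 33.2 at day 5. Macrophage and blood markers are given beside these groups because such cells carry interferon and class II genes. Of 17 measured, 5 were higher and 2 lower at day 3 (median 0.40), where 19.5% and 17.6% of all genes were. The summed level of these markers was 3472 and 5023 at day 0, 663 and 587 at day 1 and 1553 and 1619 at day 3. The rises were Mpeg1, Ptprc, Itgam, Laptm5 and Cd68, while Tyrobp was at 0 in all 4 libraries, C1qa was at 0 in both day 3 libraries, and Spi1, the macrophage master regulator, had 0.683 and 0 at day 3 and 4.26 and 1.97 at day 1. The 2 lower calls, Cd14 and Fcer1g, were lost with library weights, and with quantile scaling 5 members were lower. The part of such cells in the interferon and class II values was not tested. With the Ddx10 hairpin, 36 of 37 interferon-stimulated, 19 of 19 class I and 15 of 16 GTPase genes were higher at day 3 than at day 1 (18.0% of all genes there).

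**Figure D2:**
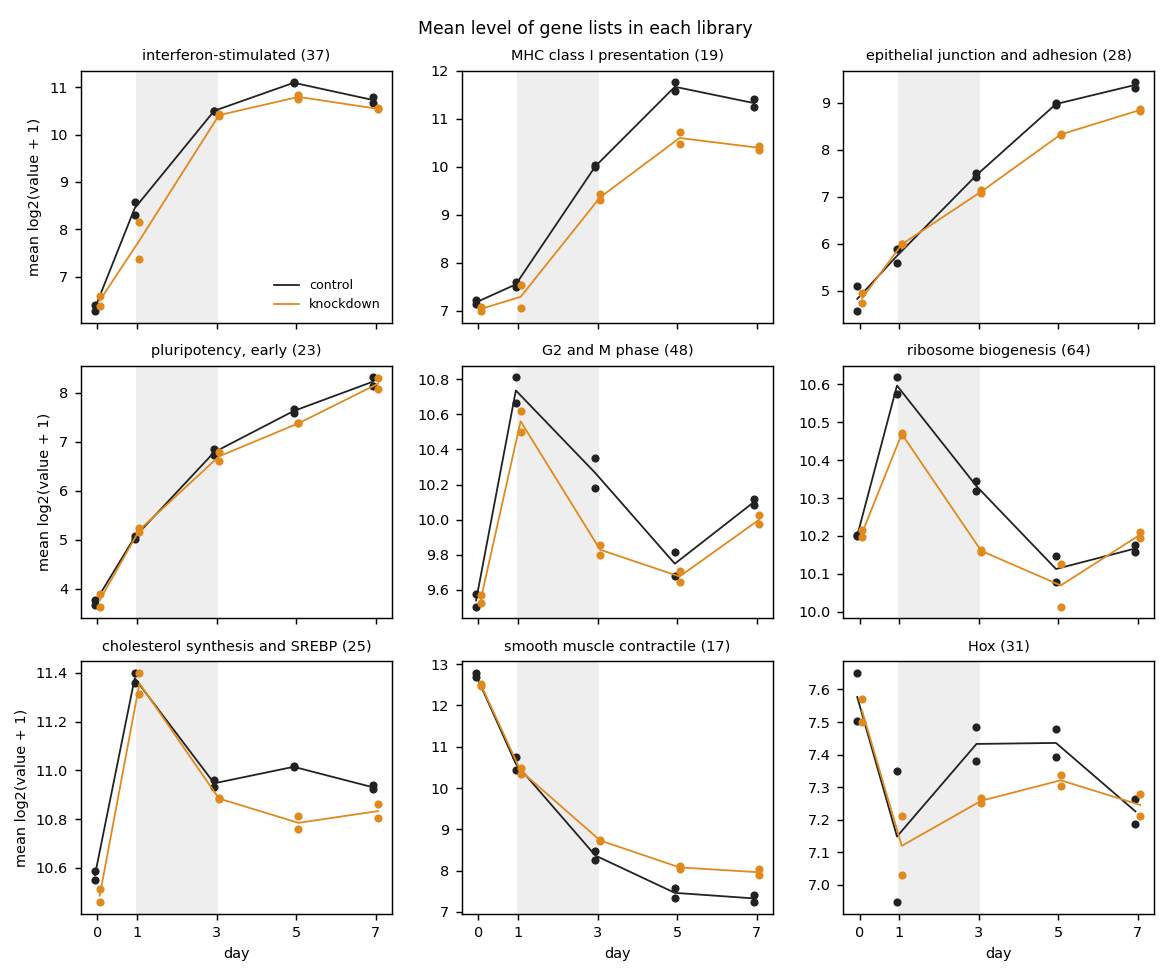
Mean log2(normalized count + 1) over the measured members of 9 gene lists in each library (points) by day of reprogramming, with the control in black, the Ddx10 hairpin in orange, lines through the mean of 2 libraries and the interval from day 1 to day 3 shaded. The interferon-stimulated, class I, epithelial and early pluripotency lists climb across the shaded interval, the contractile list descends throughout, and the G2 and M phase list peaks at day 1.

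Epithelial junction and adhesion genes rose broadly: 23 of 28 measured members were higher and 1 was lower, with a median of 1.36. Cdh1, which encodes E-cadherin, had 2680 and 3083 at day 3 and 390 and 396 at day 1 (2.87, adjusted p = 1.55e-06). Epcam, a homophilic adhesion molecule of epithelia (chr17:87635979-87651129), had 582 and 610 at day 3 and 40.5 and 21.7 at day 1 (4.28 ± 0.38, adjusted p = 8.82e-07). Crb3, a polarity protein, had 73.2 and 64.1 at day 3 and 7.02 and 5.43 at day 1 (3.28). The tight junction gene Marveld3 had 41.1 and 68.2 at day 3 and was nearly absent at day 1, with 0.752 and 0 (5.35), and Lsr of tricellular junctions differed by 2.56. The 1 exception was Cdh3, P-cadherin, with 44.0 and 34.5 at day 3 and 170 and 172 at day 1 (-2.10 ± 0.18, adjusted p = 1.96e-07). The 2 cadherins of the list therefore moved in opposite directions, and in neither did the groups overlap.

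Regulators of the epithelial state followed unevenly. Of 18 measured, 12 were higher and none was lower (median 1.79). Elf3, an epithelial ETS factor (chr1:135253575-135258568), had 331 and 316 at day 3 and 15.7 and 4.01 at day 1 (5.15 ± 0.53, adjusted p = 4.03e-06). Grhl1 had 48.1 and 44.5 at day 3 and 5.87 and 8.61 at day 1 (2.54), and Ehf, another epithelial ETS factor, had 657 and 649 at day 3 and 184 and 126 at day 1 (2.09). The membrane protease St14 (2.02) and its inhibitors Spint1 (4.14) and Spint2 (2.41) were higher as well. By contrast Grhl2 had 1.36 and 0.826 at day 3 and 5.07 and 2.78 at day 1 (-1.21, adjusted p = 0.06), and the splicing factor Esrp1 had 3.63 and 3.87 at day 3 and 1.73 and 0 at day 1 (1.52, adjusted p = 0.0809). Neither passed the test, and both were clearly present by day 5, with 43.8 and 41.7 for Grhl2 and 76.6 and 59.1 for Esrp1. Among simple epithelial keratins 3 of 6 were higher, led by Krt8 with 1100 and 951 at day 3 and 112 and 130 at day 1 (3.08, adjusted p = 1.55e-10). Its filament partner Krt18 had 345 and 293 at day 3 and 141 and 112 at day 1 (1.33). Krt19 had 707 and 594 at day 3 and 671 and 574 at day 1, with groups that overlapped (0.06).

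Of 31 measured transcription factors of mesenchymal cells 8 were higher and 6 lower (median -0.06), where 19.5% and 17.6% of all genes were. A separate list of 10 factors known to hold cells in a mesenchymal state was lower by small amounts. In it 7 of 10 were called lower and 1 higher, with a median of -0.39. Foxc2 (-1.21), Prrx2 (-0.68) and Snai2 (-0.62) differed most, and Snai2 had 361 and 365 at day 3 and 627 and 499 at day 1. Zeb2 (-0.47), Snai1 (-0.46), Zeb1 (-0.33) and Twist1 (-0.28) differed less. The count of lower members was 3 with library weights, 2 in the fit of the 4 libraries alone, 4 without day 1 replicate 1 and 4 without day 3 replicate 2. Tcf4 was the higher one, with 3191 and 3423 at day 3 and 2490 and 1786 at day 1 (0.65), and its call was lost without day 1 replicate 2 (0.41, adjusted p = 0.0775).

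Pluripotency genes rose in part. Of the early list 14 of 23 were higher and none lower (median 1.23), and of the core and late list 9 of 23 were higher and none lower (median 0.71, with 5 higher among genes of mean at least 50). Tdh, threonine dehydrogenase of mouse pluripotent cells, had 1637 and 1618 at day 3 and 156 and 158 at day 1 (3.36 ± 0.10, adjusted p = 2.1e-12). The naive factor Tfcp2l1 had 1022 and 1212 at day 3 and 115 and 167 at day 1 (3.00), and Zfp42, known as Rex1, had 101 and 90.0 at day 3 and 3.05 and 11.5 at day 1 (3.76). Nr0b1, a nuclear receptor of the embryonic stem cell network, had 91.2 and 94.4 at day 3 and 2.03 and 1.44 at day 1 (5.11, adjusted p = 6.74e-07) and then fell, to 27.6 and 30.5 at day 5 (-1.64). Sall4 had 34.0 and 56.3 at day 3 and 1.70 and 0 at day 1 (4.77), and the nuclear receptor gene Nr5a2 differed by 4.88. In these genes day 3 lay above day 1 in both libraries.

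Several late members were still low at day 3. Nanog, a factor of the established network, had 3.28 and 0 at day 1, 4.77 and 1.88 at day 3 and 93.7 and 78.0 at day 5, and its day 3 minus day 1 difference did not pass the test (0.98, adjusted p = 0.223). Esrrb, a nuclear receptor of the same network, had 13.3 and 6.29 at day 1, 5.76 and 1.24 at day 3 and 97.7 and 89.2 at day 5 (-1.39 for day 3 minus day 1, adjusted p = 0.11). Dppa5a was at 0 in all 4 libraries. Of 15 markers of mouse embryonic stem cells, which overlap these lists, 8 were higher and none lower, and their sum was 2993 and 3190 at day 3, against 345 and 394 at day 1, most of it from Tdh and Tfcp2l1.

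The reprogramming factors themselves were abundant at both days and differed little, and reads of the viral copies cannot be told from those of the cell's own genes. Pou5f1, the gene of Oct4, had 14984 and 15461 at day 3 and 11364 and 11711 at day 1 (0.40 ± 0.06, adjusted p = 0.000112). Klf4 had 17311 and 17281 at day 3 and 15774 and 13069 at day 1 (0.27, adjusted p = 0.0214), and the call was lost with library weights (adjusted p = 0.0723), without day 1 replicate 2 (0.13, adjusted p = 0.238) and without either day 3 library (adjusted p = 0.077 and 0.0804). Sox2 overlapped between the days, with 9797 and 9255 at day 3 and 9808 and 8434 at day 1 (0.07, adjusted p = 0.565), and was called with quantile scaling (0.25, adjusted p = 0.0222). Myc had 1329 and 1314 at day 3 and 1671 and 1665 at day 1 (-0.34, adjusted p = 0.0103), a call lost with library weights (adjusted p = 0.0816) and without day 3 replicate 2 (adjusted p = 0.0548). Ddx10, which the control hairpin does not target, had 803 and 841 at day 3 and 804 and 921 at day 1 (-0.07, adjusted p = 0.692), against 306 and 355 at day 3 and 255 and 321 at day 1 with its own hairpin.

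**Figure D3:**
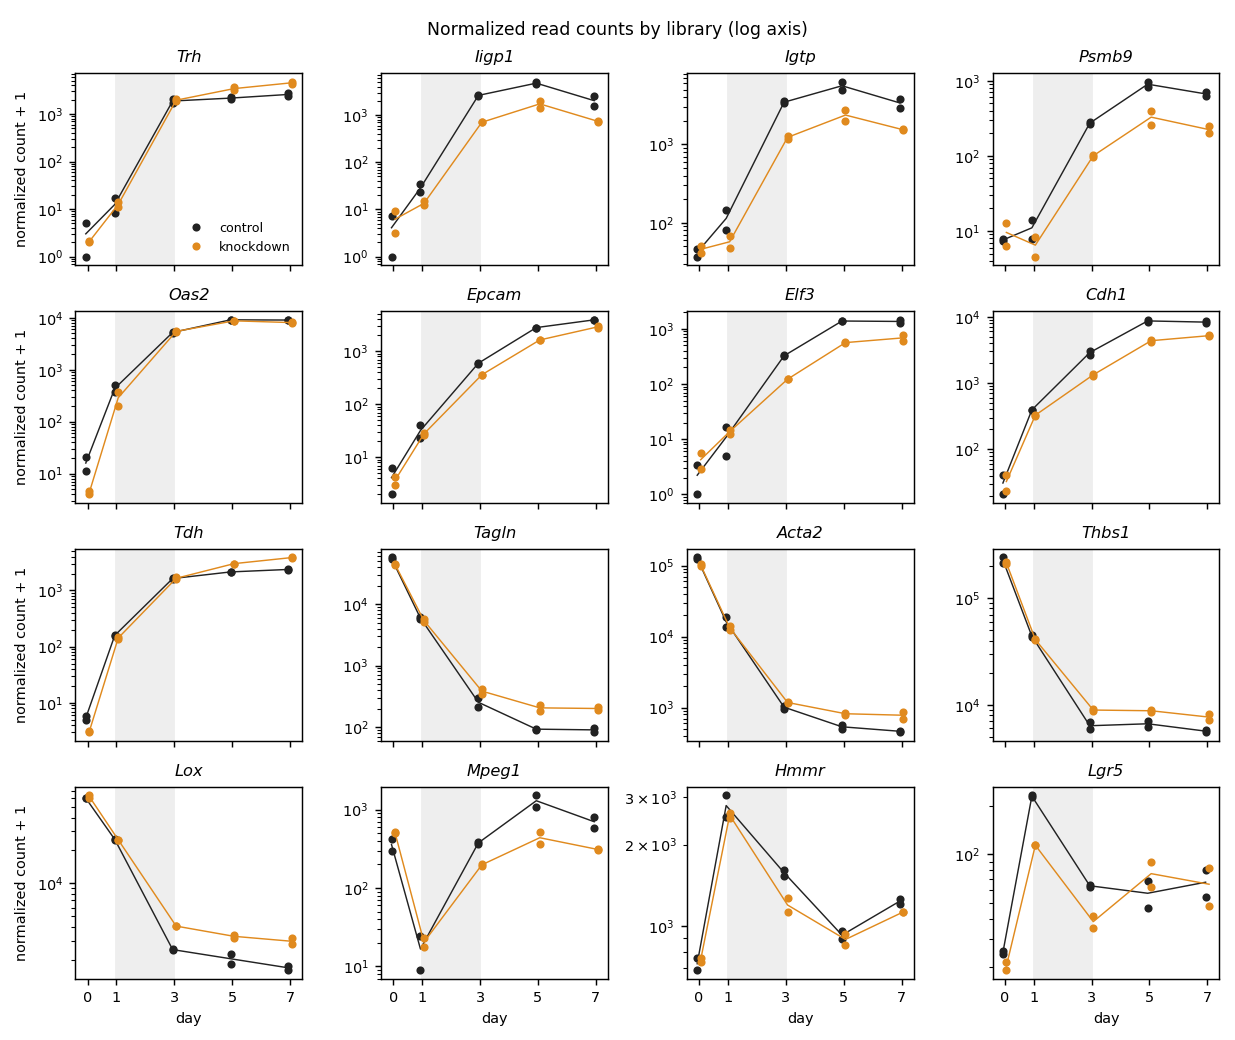
Normalized count + 1 on a log axis in every library of the control (black) and the Ddx10 hairpin (orange) by day for 16 genes: 9 that rose early or late, 4 contractile or matrix genes that fell, and Mpeg1, Hmmr and Lgr5, which changed direction. In the control, Trh lies at 1695 and 2060 at day 3 and at 7.15 and 15.8 at day 1, while Tagln lies at 291 and 212 at day 3 and at 6084 and 5693 at day 1.

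The contractile programme of smooth muscle continued to fall. Of 17 measured members 15 were lower and 1 was higher, with a median of -1.51, after 17 of 17 had fallen from day 0 to day 1 (median -2.12). Their summed level was 418635 and 400426 at day 0, 94301 and 77608 at day 1 and 26867 and 25401 at day 3. Acta2, smooth muscle actin (chr19:34241090-34255590), had 1067 and 954 at day 3 and 18850 and 13452 at day 1 (-3.98 ± 0.14, adjusted p = 2.23e-11). The light chain Myl9 had 119 and 79.1 at day 3 and 1454 and 1116 at day 1 (-3.70), and the heavy chain Myh11 had 31.9 and 18.1 at day 3 and 239 and 273 at day 1 (-3.35). The non-muscle actinin Actn1 fell less (-1.41). The exception was Synpo2, an actin bundling protein, with 298 and 168 at day 3 and 81.1 and 73.0 at day 1 (1.53). From day 3 to day 5, 14 more falls and no rise were called.

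Targets of SRF and of YAP, which read actin tension and cell spreading, fell as a complete set: 13 of 13 were lower, with a median of -0.82, as 13 of 13 had been from day 0 to day 1. Ankrd1 had 117 and 98.8 at day 3 and 798 and 740 at day 1 (-2.82). Ctgf, a matricellular growth factor (chr10:24595442-24598683), had 1284 and 1038 at day 3 and 8524 and 8674 at day 1 (-2.90 ± 0.09, adjusted p = 4.5e-12), and its relative Cyr61 differed by -1.69. Srf itself was only slightly lower (-0.43). The SRF binding sequence, the CArG box, stood in 2 of 14 contractile promoters and in 2 of 11 promoters of this list, against 1.4% of all promoters.

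Matrix genes fell in most branches, with clear exceptions. Among enzymes that modify collagen and matrix 17 of 26 were lower and 4 higher (median -0.55). Lox, which cross-links collagen and elastin, had 2462 and 2508 at day 3 and 25509 and 24974 at day 1 (-3.34 ± 0.08, adjusted p = 4.35e-13), and its relatives Loxl1 and Loxl2 differed by -1.41 and -1.91. Of 22 small matrix glycoproteins 15 were lower and 1 higher (median -0.86). Thbs1, thrombospondin, had 6844 and 5861 at day 3 and 43160 and 44682 at day 1 (-2.79, adjusted p = 2.61e-12), whereas Lum, the keratan sulfate proteoglycan lumican, had 2295 and 1963 at day 3 and 771 and 879 at day 1 (1.37). For the 3 genes with printed levels the groups stood apart.

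Collagens divided. Of 17 measured, 8 were lower and 6 higher (median -0.16), after 12 lower and 3 higher from day 0 to day 1. Col12a1, which decorates fibrils, had 1667 and 1511 at day 3 and 10706 and 10647 at day 1 (-2.75, adjusted p = 1.67e-12). The main fibrillar chain Col1a1 had 27935 and 28442 at day 3 and 57876 and 60494 at day 1 (-1.07). Col18a1 of basement membranes, the source of endostatin, moved the other way with 5400 and 5289 at day 3 and 1070 and 945 at day 1 (2.41, adjusted p = 5.01e-10), and basement-membrane Col15a1 (2.52), the 3 collagen VI chains Col6a1 (0.79), Col6a2 (0.76) and Col6a3 (1.13) and Col5a3 (1.18) were also higher. Fibril-forming and fibril-associated chains thus made up the falls named here, and basement membrane and microfibril chains most of the rises.

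Mesenchymal surface and cytoskeleton genes were lower in 15 of 19 cases and higher in 1 (median -0.54). Tnc, the matrix protein tenascin C, had 7746 and 7046 at day 3 and 21637 and 21103 at day 1 (-1.53), and the fibroblast marker Thy1 had 1579 and 1556 at day 3 and 4896 and 2834 at day 1 (-1.25). The intermediate filament gene Vim (-0.71), Fn1 (-0.76) and Cdh11 (-0.95) fell by less than 2-fold. The ecto-nucleotidase Nt5e, known as CD73, was the exception, with 6894 and 6557 at day 3 and 2024 and 2641 at day 1 (1.54 ± 0.11, adjusted p = 2.79e-08). Of 12 fibroblast markers 6 were lower and 1, Lum, was higher. Their sum was 123031 and 117728 at day 3 and 184841 and 209937 at day 1, so most of the fibroblast marker RNA of day 1 was still present at day 3.

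TGF-beta genes leaned the same way, with 8 of 18 lower and 2 higher. Inhba, the activin A subunit, had 165 and 191 at day 3 and 940 and 998 at day 1 (-2.44), and the feedback target Pmepa1 differed by -1.03. BMP genes were mixed, with 7 of 18 lower and 5 higher: the receptor Bmpr1b had 23.5 and 28.4 at day 3 and 174 and 164 at day 1 (-2.66), while the ligands Bmp2 (394 and 347 at day 3, 139 and 116 at day 1; 1.53) and Bmp7 (2.16) were higher. This receptor and these ligands therefore changed in opposite directions, and other receptors and ligands of the list are not shown. Of the 18 members 6 were not called, and the median was 0.0. In the fit of the 4 libraries alone 2 members were higher.

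Cell cycle genes, which had risen after day 0, came down part of the way. In the G2 and M phase list 33 of 48 were lower and none higher (median -0.51), after 46 of 48 had risen from day 0 to day 1 (median 1.16). Summed levels were 44827 and 46870 at day 0, 99453 and 110149 at day 1 and 70532 and 80595 at day 3, so day 3 lay between the other days. Anln, an actin-binding protein of the cleavage furrow, had 4007 and 4126 at day 3 and 7139 and 8360 at day 1 (-0.93 ± 0.08, adjusted p = 4.54e-07), and the spindle protein Hmmr had 1532 and 1614 at day 3 and 2533 and 3045 at day 1 (-0.82). In the S phase list 25 of 45 were lower (median -0.29), a count of 16 with library weights, 12 in the fit of the 4 libraries alone, 16 without day 1 replicate 2 and 14 without day 3 replicate 2. Ccne1, cyclin E1 of the G1 to S transition, had 831 and 854 at day 3 and 1850 and 1640 at day 1 (-1.05 ± 0.09, adjusted p = 1.61e-07). The ribonucleotide reductase subunit Rrm1 differed by -0.88. With the Ddx10 hairpin 45 of 48 G2 and M phase genes were lower in the same step, where 14.3% of all genes were lower.

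Biosynthetic lists that had risen by day 1 fell back by small amounts. Of 25 cholesterol synthesis genes 18 were lower and 1 higher (median -0.49), after 22 had risen and none fallen from day 0 to day 1. Nsdhl, a sterol dehydrogenase, had 1252 and 1208 at day 3 and 2423 and 2285 at day 1 (-0.94 ± 0.06, adjusted p = 2.25e-08), and Fdps (-0.72) and Msmo1 (-0.71) were similar. Srebf2, the regulator of the pathway, was the member called higher (0.23), and that call was lost with library weights. CCAAT, an element of many cell cycle and sterol gene promoters, stood in 15 of 17 cholesterol promoters (88.2%), against 38.5% of all promoters. Of 64 ribosome assembly genes 33 were lower and none higher (median -0.27), a count of 20 with library weights and 9 in the fit of the 4 libraries alone. Ncl, nucleolin, had 20119 and 21047 at day 3 and 29509 and 26752 at day 1 (-0.45), but was not called with quantile scaling (-0.09, adjusted p = 0.35). Nuclear genes of oxidative phosphorylation gave no stable count: 7 of 40 were lower, but 1 with library weights, none in the fit of the 4 libraries alone, 11 without day 1 replicate 2 and 1 without day 3 replicate 2.

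In metabolism outside these lists single enzymes moved strongly. Aldh3a1, an aldehyde dehydrogenase of cornea and stomach, had 10178 and 9709 at day 3 and 2565 and 2682 at day 1 (1.92), and the retinol and alcohol dehydrogenase Adh7 had 2940 and 2810 at day 3 and 669 and 808 at day 1 (1.97). Their list of detoxifying enzymes had 6 of 12 higher and 3 lower. Phgdh, the first enzyme of serine synthesis, had 1613 and 1431 at day 3 and 3733 and 4033 at day 1 (-1.35), and Ddit4, an inhibitor of mTORC1, had 2096 and 1899 at day 3 and 745 and 702 at day 1 (1.46). Both belong to the stress list, in which 14 of 37 were lower (6 in the fit of the 4 libraries alone) and 4 higher. In glycolysis 8 of 25 were lower and 6 higher, a count of lower members that was 2 in the fit of the 4 libraries alone and 5 without day 3 replicate 2.

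Signalling lists held calls in both directions, where 19.5% of all genes were higher and 17.6% lower. In the Wnt pathway 12 of 30 were higher and 8 lower (5 lower in the fit of the 4 libraries alone), and the 2 strongest rises were feedback inhibitors: Notum had 725 and 646 at day 3 and 119 and 67.9 at day 1 (2.91), and Nkd1 had 290 and 310 at day 3 and 53.3 and 42.2 at day 1 (2.63). Among 20 IGF and imprinted growth genes 11 were lower and 5 higher (median -0.70), and the higher ones numbered 3 with library weights, 2 in the fit of the 4 libraries alone, 2 without day 3 replicate 1 and 3 without day 3 replicate 2. Igf2 differed by -1.32, Igfbp2 by -1.82 and Igfbp5 by 1.94. Of 24 immediate early genes 11 were lower (7 in the fit of the 4 libraries alone) and 2 higher (4 without day 1 replicate 1). Of 20 chemokines and cytokines 3 were higher and 5 lower, near the shares of all genes. Cxcl12, a stromal chemokine, had 285 and 256 at day 3 and 871 and 711 at day 1 (-1.54), and Il6 had 4.03 and 2.68 at day 3 and 25.8 and 29.9 at day 1 (-2.74). Ccl8, which interferon induces, rose with 220 and 280 at day 3 against 26.4 and 14.3 at day 1 (3.61), whereas Cxcl10, another interferon-induced chemokine, had 63.0 and 78.1 at day 3 and 76.6 and 75.2 at day 1 (-0.11, adjusted p = 0.872). These 2 chemokines therefore did not move together.

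The DNA methylation and Polycomb lists had small medians (0.16 and 0.11), with more members higher than lower. Over all genes 19.5% were higher and 17.6% lower. Of 15 DNA methylation genes 5 were higher and 2 lower (1 lower without any 1 of the 4 libraries), with Tet2, a methylcytosine dioxygenase, at 1256 and 1399 at day 3 and 423 and 557 at day 1 (1.45) and the de novo methyltransferase Dnmt3b at 97.9 and 106 at day 3 and 43.1 and 42.3 at day 1 (1.23). Polycomb genes were higher in 7 and lower in 4 of 22 cases, with the subunit Phf19 at -1.10 and Jarid2 at 1.24. The Polycomb counts were 4 and 1 with library weights and 2 and 1 in the fit of the 4 libraries alone. The Polycomb median was 0.06 without day 1 replicate 2 and 0.05 without day 3 replicate 1. Of 31 Hox genes 10 were higher and 1 lower (median 0.34), after 13 had fallen and 1 had risen from day 0 to day 1. The Hox count was 5 higher in the fit of the 4 libraries alone. The Hox median depended on the day 1 library, with -0.02 without day 1 replicate 2 and 0.56 without day 1 replicate 1. Summed Hox levels were 9613 and 10422 at day 3 and 8778 and 6504 at day 1. Hoxd4 had 139 and 144 at day 3 and 71.2 and 39.6 at day 1 (1.40).

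Markers of other cell types were few and weak, with single exceptions. Among 12 neural and glial genes 4 were higher and 2 lower: Nefl, a neurofilament, had 6624 and 6524 at day 3 and 1654 and 1604 at day 1 (2.01), and Gad2, which makes GABA, had 611 and 770 at day 3 and 105 and 103 at day 1 (2.72), while Sox10 stayed at 8.67 to 17.4 in all 4 libraries and Tubb3 was lower (-0.98). Of 8 trophoblast markers 2 were higher, Elf5 and Tfap2c, the second with 74.1 and 101 at day 3 and 7.77 and 7.83 at day 1 (3.32). This count was 1 with library weights, quantile scaling, a pseudocount of 5 or the replicate block. It was also 1 among genes with a mean of at least 50 and in the fit of the 4 libraries alone. Endothelial markers were higher in 2 and lower in 2 of 9 cases, keratinocyte markers in 2 and 2 of 11, muscle markers in 1 and 1 of 6, and adipocyte markers were lower in 1 of 5. Over all genes 19.5% were higher and 17.6% lower. The endothelial, keratinocyte and muscle counts and the count of higher trophoblast markers lie near those shares. The small counts also moved with the libraries used. The higher endothelial markers numbered 1 without day 1 replicate 2 or day 3 replicate 2 and 0 in the fit of the 4 libraries alone, and the lower ones 1 without day 1 replicate 1 or day 3 replicate 2. The higher keratinocyte markers numbered 1 without day 1 replicate 2 or day 3 replicate 1, and the lower ones 0 without day 1 replicate 1 or day 3 replicate 1 and 1 without either of the other libraries. The lower adipocyte markers numbered 0 without day 1 replicate 1 or day 3 replicate 2 and 2 without day 3 replicate 1. The part of these cell types in the results above was not tested.

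The question which genes continue and which reverse their day 0 to 1 change was read from that step beside the day 1 to 3 step. Both steps use the same 2 day 1 libraries, so an error in those libraries enters them with opposite sign. Day 0 was not free of the reprogramming factors: the 4 genes summed to 38601 and 33459 at day 0 and 38618 and 34879 at day 1. The labels do not say when day 0 was counted relative to infection. From day 0 to day 1, 8664 genes (55.0%) were called. Of the genes called from day 1 to day 3, 1320 rose in both steps (22.6%), 1287 fell in both, 636 rose and then fell (10.9%) and 522 fell and then rose (8.93%), while 1228 rose and 851 fell only in the second step's test. With a different day 1 library for each step, the 4 counts were 1249 or 1321, 1237 or 1410, 589 or 420, and 457 or 373, depending on which library served the first step. Library weights gave 812, 748, 302 and 234. A change of at least 2-fold in both steps was found for 569, 235, 52 and 73 genes, so reversals of that size were few.

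Genes that rose in both steps included antiviral and secretory ones. Ces1f, a carboxylesterase, had 1.26 and 1.94 at day 0, 86.7 and 96.1 at day 1, 1164 and 1075 at day 3 and 3365 and 3417 at day 5. Gbp6, a guanylate-binding protein, had 6.15 and 5.22 at day 0, 108 and 158 at day 1 and 1882 and 1973 at day 3. Tnr, the matrix protein tenascin R, turned after day 3, with 0 and 0 at day 0, 17.3 and 16.0 at day 1, 240 and 215 at day 3 and 91.8 and 86.1 at day 5. The falling class was led by the contractile genes already given: Acta2 had 129684 and 123243 at day 0, and Tagln had 57182 and 53569. Of the genes that rose in both steps 413 rose again from day 3 to day 5 and 172 fell, and of those that fell in both steps 474 fell again and 152 rose.

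Reversals in the first direction were transient peaks at day 1. Lgr5, an R-spondin receptor of stem cells (chr10:115450311-115587780), had 24.2 and 23.4 at day 0, 231 and 225 at day 1 and 61.8 and 64.0 at day 3 (3.21 and then -1.84). Tshr, the thyrotropin receptor, had 149 and 123 at day 0, 448 and 429 at day 1 and 150 and 131 at day 3. Apln, the ligand apelin, had 31.6 and 50.7 at day 0, 139 and 138 at day 1 and 51.0 and 44.1 at day 3. Tshr and Apln were thus back at their day 0 range, and Lgr5 remained above it. The G2 and M phase, S phase and cholesterol lists belong to the same pattern at smaller size.

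Reversals in the other direction were troughs at day 1. Mpeg1, the pore-forming protein perforin-2 of macrophages that interferon also induces (chr19:12460779-12465283), had 293 and 421 at day 0, 8.04 and 23.3 at day 1, 364 and 386 at day 3 and 1519 and 1068 at day 5 (-4.57 and then 4.66 ± 0.35). Smoc1, a matricellular BMP antagonist, had 302 and 264 at day 0, 77.4 and 54.0 at day 1 and 263 and 317 at day 3. Smpd3, a sphingomyelinase, had 507 and 466 at day 0, 106 and 81.5 at day 1 and 297 and 321 at day 3. Macrophage markers fell as a list from day 0 to day 1 (14 of 17 lower, none higher, median -4.48). In the day 1 to 3 step 5 of the 17 were higher (Mpeg1, Ptprc, Itgam, Laptm5 and Cd68) and 2 were lower. Over all genes 19.5% were higher and 17.6% lower in that step. Tyrobp and C1qa were at 0 in both day 3 libraries. The class that fell and then rose held 875 genes without day 1 replicate 1, against 522 with both libraries.

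**Figure D4:**
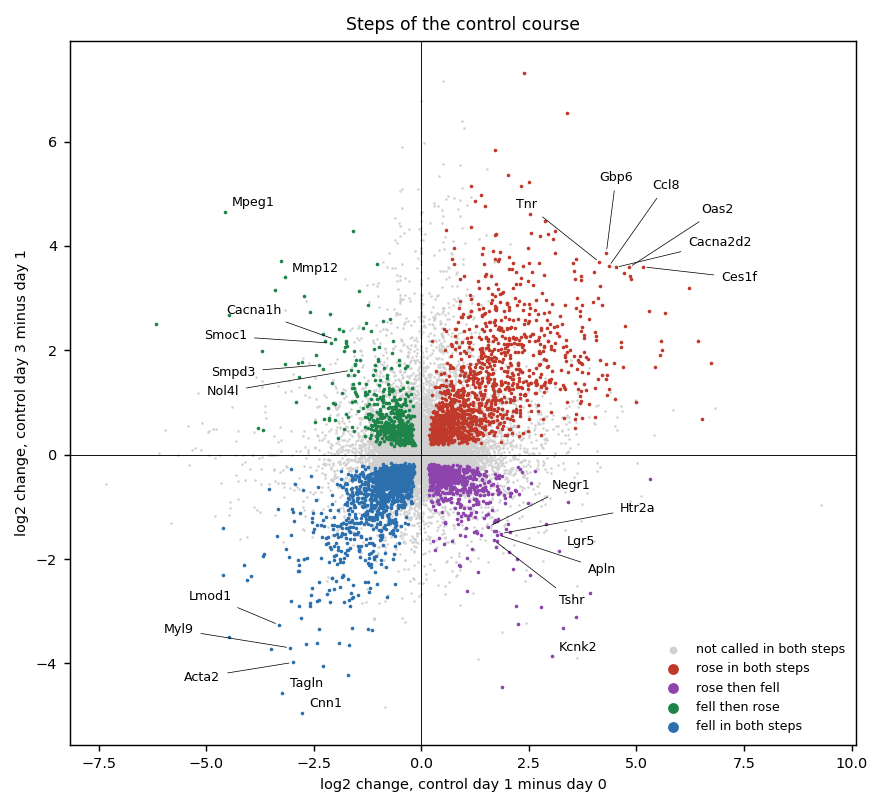
Log2 difference of day 1 minus day 0 (horizontal) against day 3 minus day 1 (vertical) in the control, 1 point per gene, coloured where both steps were called: rose in both (red, 1320), rose then fell (purple, 636), fell then rose (green, 522), fell in both (blue, 1287). Named genes were chosen by rule within each class; both axes use the same day 1 libraries.

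The same step in cells with the Ddx10 hairpin shares no library with the control step. There 5095 genes were called (32.3%; 2840 higher, 2255 lower). Of the control calls 3819 (65.3%) were also called in the same direction with the hairpin, which is 75.0% of the hairpin's calls. The same sign was held by 5613 of the control calls (96.0%). That share was not counted over all genes, so it has no background here. Across genes, which are not independent replicates, the 2 steps had a Pearson correlation of 0.801. The median absolute difference of the control calls was 0.67 in the control, where they were chosen, and 0.51 with the hairpin. Called with opposite sign in the 2 arms were 6 genes, Dguok and Srpx among them.

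The difference between the 2 steps was itself called for 28 genes (0.178%), 8 with the higher step in the control (0.0508%) and 20 with the lower (0.127%), and 1624 had an unadjusted p below 0.05. Fbln5, Lox and Ctgf were among the lower ones. Fbln5, at 1100 and 1037 at day 3 and 13391 and 13521 at day 1 in the control, had 1885 and 1730 at day 3 and 11917 and 11547 at day 1 with the hairpin (difference of the steps -0.95, adjusted p = 0.0053). Lox had 4076 and 4073 at day 3 and 24937 and 25125 at day 1 with the hairpin (-0.73, adjusted p = 0.0295). Ctgf had 1878 and 1993 at day 3 and 7287 and 7336 at day 1 with the hairpin (-0.98, adjusted p = 0.0149). All 3 fell in both arms, by a smaller step with the hairpin. Gpx2 rose further in the control, since it had 76.8 and 57.3 at day 3 and 0.926 and 2.24 at day 1 with the hairpin (2.42, adjusted p = 0.0325). Klf2, a factor of naive pluripotency, had 221 and 241 at day 3 and 105 and 83.7 at day 1 in the control, against 126 and 120 at day 3 and 114 and 93.4 at day 1 with the hairpin (1.05, adjusted p = 0.0325). None of the 28 differences passed the test with library weights or in the fit of the compared libraries alone.

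**Figure D5:**
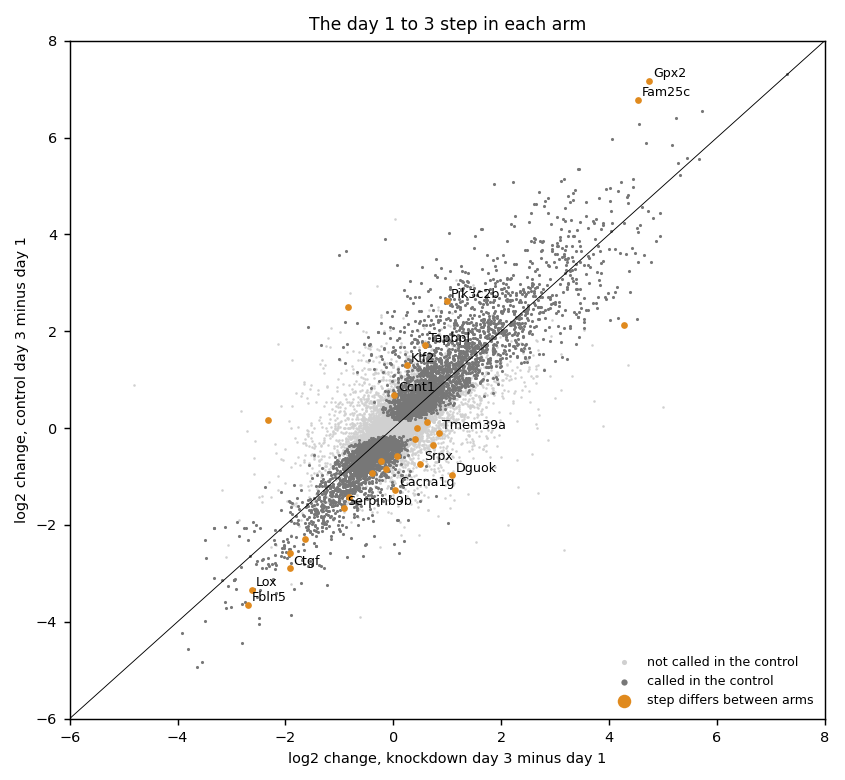
Log2 difference of day 3 minus day 1 with the Ddx10 hairpin (horizontal) against the same step in the control (vertical), 1 point per gene, with the 28 genes whose step differed between arms in orange. Most points lie along the diagonal (Pearson 0.801), and Gpx2 (7.17 in the control) and Fbln5 (-3.65 in the control) are among the orange ones.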

How the data were processed

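RNA extraction was by TRIzol, and messenger RNA libraries were read as pairs on a HiSeq X instrument, per the labels' protocols. The deposited table gives 15757 genes in 20 libraries as signal that the authors call normalized read counts. The submitters' processing notes list mm10, DESeq2 1.22.0, Trim Galore 0.4.4, RSEM 1.2.22 and STAR 2.5.2a; the normalization step, annotation and gene filter are not given in the sources used here. Low values were not whole multiples of 1 step (45.4 to 63.4% lay within 0.1 of one), so whole reads could not be recovered and the planned count test was replaced by limma. Depth in reads is unknown. The lowest row maximum was 7.61, so no gene is at 0 in every library, though some are low in all. Of the identifiers 15665 matched GENCODE names, and 23 symbols turned into dates or blanks were restored.

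Values were taken as log2(value + 1), with a filter of at least 1 in at least 2 libraries that removed 0 genes. All 20 libraries entered 1 limma 3.58.1 fit (R 4.3.3) with 10 group means and robust, trended variance moderation (10 residual and a median of 5.35 prior degrees of freedom). P-values were adjusted by the Benjamini and Hochberg method over all genes, with a threshold of 0.05. The median standard error was 0.156 for a step and 0.22 for the difference between arms. Tables and figures were made with Python 3.11.15, pandas 2.3.3, numpy 2.4.6 and matplotlib 3.10.9. Scripts were tested on simulated data. Gene positions are from GENCODE vM21 on mm10 and promoters from RefSeq.

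Members, lists and tests were chosen with earlier results of these data known. Genes were named by rule: the 15 largest rises and falls among called genes whose groups did not overlap and whose higher group averaged 100 or more, the 4 smallest p per list, 6 genes per class, the 8 largest differences between arms each way, short lists whole, the 4 factors and Ddx10. Some genes that the rule names are not reported here. Other members of the lists, and the lists of GTPases, of interferon ligands and receptors and of class II genes, were picked after their values were seen. Alternatives were quantile scaling, pseudocounts of 0.1 and 5, no filter, a mean of at least 50, the replicate number as a block, library weights, the compared libraries only, and each library left out in turn. The labels do not say whether equal replicate numbers mark pairs. Correlations of replicate differences were -0.03 to 0.08 among the control groups of days 0, 1 and 3 and the hairpin groups of days 1 and 3. Such correlations cannot exclude pairing by culture or infection.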

Additional observations from a re-analysis of the deposited data

Results flagged for a closer look

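Of the 28 genes whose day 1 to 3 step differed between the arms by a test of the difference itself (limma, control step minus hairpin step, adjusted p below 0.05), the 14 named by rule are given here, and all 14 calls were lost with library weights (adjusted p = 0.0568 to 0.242) and in the fit of the compared libraries alone. The control step was the higher one in 6 of these 14. For Gpx2 the difference was 2.42, and for Fam25c, with 112 and 106 at day 3 and 0 and 0 at day 1 in the control against 70.7 and 71.7 at day 3 and 2.09 and 2.12 at day 1 with the Ddx10 hairpin, it was 2.24. Pik3c2b, a class II phosphoinositide kinase, had 246 and 310 at day 3 and 43.6 and 44.6 at day 1 in the control, against 137 and 160 at day 3 and 81.7 and 66.9 at day 1 with the hairpin (1.62). Tapbpl, the peptide editor TAPBPR of class I molecules, had 374 and 388 at day 3 and 118 and 113 at day 1 in the control, against 222 and 223 at day 3 and 147 and 149 at day 1 with the hairpin (1.12). For Klf2 the difference was 1.05. Ccnt1, cyclin T1 of the elongation factor P-TEFb, had 1529 and 1586 at day 3 and 898 and 1040 at day 1 in the control, against 1065 and 1148 at day 3 and 1046 and 1131 at day 1 with the hairpin (0.66).

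The control step was the lower one in 8 of these 14. Dguok, the mitochondrial deoxyguanosine kinase, had 90.1 and 107 at day 3 and 207 and 184 at day 1 in the control, against 280 and 212 at day 3 and 115 and 113 at day 1 with the hairpin, so the arms moved in opposite directions (-2.07). Srpx did so too, with 177 and 141 at day 3 and 265 and 264 at day 1 in the control, against 318 and 319 at day 3 and 242 and 210 at day 1 with the hairpin (-1.24). Cacna1g, a T-type calcium channel, had 197 and 162 at day 3 and 451 and 422 at day 1 in the control, against 334 and 261 at day 3 and 308 and 267 at day 1 with the hairpin (-1.32). Tmem39a had 694 and 726 at day 3 and 739 and 785 at day 1 in the control, against 844 and 798 at day 3 and 439 and 480 at day 1 with the hairpin (-0.94). Serpinb9b had 867 and 855 at day 3 and 2683 and 2755 at day 1 in the control, against 1518 and 1485 at day 3 and 2665 and 3030 at day 1 with the hairpin (-0.74). The remaining differences were -0.98 for Ctgf, -0.95 for Fbln5 and -0.73 for Lox.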

How the results depend on the processing

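The 5844 calls of the control step became 3690 with library weights (1981 higher, 1709 lower), 2857 in the fit of the 4 libraries alone (1631 higher, 1226 lower) and 1992 with a 2-fold minimum (1429 higher, 563 lower). Leaving out 1 library gave 4213 to 5873 (2289 to 3107 higher, 1924 to 2766 lower). Of the main calls 52.5% were higher, against 47.5% with quantile scaling (2655 higher, 2939 lower), which moved the median of all genes to -0.047, and 48.7% among genes with a mean of at least 50 (2532 higher, 2663 lower). Same-numbered replicates were not shown to be pairs, and with the replicate block 5709 genes were called in the step (3015 higher, 2694 lower). The day 0 to 1 step had 2944 higher genes with the compared libraries alone. Leaving out 1 library gave 3237 to 3579 calls from day 3 to day 5 (1599 to 1795 higher), and 1482 to 1704 lower genes in the hairpin step. The 28 differences between arms became 14 with quantile scaling (5 higher, 9 lower), 19 with the replicate block (6 higher, 13 lower), 0 with library weights (0 higher, 0 lower; 1038 at an unadjusted p below 0.05) and 0 with the compared libraries alone (1177 unadjusted). Leaving out 1 library gave 3 to 226 (0 to 68 higher, 1 to 180 lower), with 136 and 226 without day 1 control replicate 1 or 2. The classes (rose in both, fell in both, rose then fell, fell then rose) had 812, 748, 302 and 234 genes with library weights, 747, 792, 289 and 192 with the compared libraries alone, and 1299, 1236, 604 and 503 with the replicate block. Leaving out 1 library gave 1015 to 1266, 940 to 1153, 448 to 833 and 384 to 875, and 420 rose then fell with day 1 replicate 2 used for the first step alone. Sign changed with the day 1 control library left out, replicate 2 or replicate 1, for Sox2 (-0.04 or 0.17), Ddx10 (0.03 or -0.16) and, from day 0 to day 1, Tap1 (-0.19 or 0.23) and Cd74 (-0.61 or 1.35). It also changed with quantile scaling for Hsp90aa1 (0.05) and Cd74 from day 0 to day 1 (-0.23), and for Cd74 without day 0 replicate 2 (-0.24). Why was not tested. Among single genes and lists, 4336 values were unchanged. For a gene this means the same sign and side of the threshold, and for a list a count within 1.5 times. Of the other gene values 247 lost the call, 1 gained it and 7 changed sign. List counts moved by over 1.5 times, or to or from 0, in 194 cases. With 2 libraries a group, small differences of low genes were not detectable.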
